A study of Homo sapiens with 16 samples.

Results

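The genes described here are 6 metallothioneins (*MT1E*, *MT1F*, *MT1G*, *MT1M*, *MT1X* and *MT2A*), the zinc exporter *SLC30A1* and the transcription factor *MTF1*, in the pancreatic ductal adenocarcinoma cell lines MiaPaCa2 and PANC1. They were found by their symbols in the deposited gene expression table and joined to the read counts by Ensembl identifier, which gave 8 of the 63677 genes counted. Each line was grown in 4 groups, untreated control cells, cells given 40 nM gemcitabine for 24 h, cells given 50 μM genistein for 24 h, and cells given both drugs at these doses for the same time (co-treatment). Each group has 2 biological replicates, called replicates 1 and 2, which makes 16 RNA-Seq libraries. Gemcitabine is a deoxycytidine analogue that blocks DNA synthesis, and genistein is a plant isoflavone. The question put to the cells was how genistein alters gene expression in the presence and absence of gemcitabine, and each line is a single established culture grown on its own, without stroma.

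Metallothioneins are small, cysteine-rich proteins that bind zinc and copper ions and buffer their free concentration in the cell. When free zinc rises, the zinc-finger factor MTF1 binds short DNA motifs, the metal response elements, and turns on metallothionein genes and *SLC30A1*, whose product carries zinc out of the cell across the plasma membrane. In the pancreas, zinc handling is best known from acinar and islet cells, and metallothioneins are also induced by glucocorticoids, oxidants and other stresses.

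The promoters of *MT2A*, *MT1X* and *SLC30A1* are shown because they hold the short motif that MTF1 is known to bind. Promoter sequences came from RefSeq, whose table is built on GRCh38.p14 and held 4 of the 8 genes (these 3 and *MTF1*), and their positions were found by matching the sequences to GRCh37, the build of the deposited files. Each line gives the 250 bases upstream of the gene start, on the strand of the gene, and capitals mark matches to the core of the metal response element (TGCACNC or TGCGCNC, on either strand).

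MT2A, plus strand of chr16:56642246-56642495: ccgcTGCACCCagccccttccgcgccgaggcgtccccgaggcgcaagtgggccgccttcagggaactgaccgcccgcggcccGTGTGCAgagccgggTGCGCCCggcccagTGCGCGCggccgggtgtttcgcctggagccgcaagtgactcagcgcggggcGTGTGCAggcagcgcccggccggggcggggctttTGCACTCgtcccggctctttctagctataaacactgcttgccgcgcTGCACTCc
MT1X, plus strand of chr16:56716132-56716381: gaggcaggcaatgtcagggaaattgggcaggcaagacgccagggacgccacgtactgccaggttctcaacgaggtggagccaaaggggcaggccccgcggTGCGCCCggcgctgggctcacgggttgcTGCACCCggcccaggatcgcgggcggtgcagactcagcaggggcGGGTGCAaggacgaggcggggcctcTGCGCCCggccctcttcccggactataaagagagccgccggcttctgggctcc
SLC30A1, minus strand of chr1:211752504-211752753: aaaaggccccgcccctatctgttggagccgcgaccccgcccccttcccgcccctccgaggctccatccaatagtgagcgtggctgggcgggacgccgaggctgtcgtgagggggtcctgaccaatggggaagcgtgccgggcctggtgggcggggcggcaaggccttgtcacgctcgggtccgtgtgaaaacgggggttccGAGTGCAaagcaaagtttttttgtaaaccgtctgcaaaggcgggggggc

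The *MT2A* window held 7 matches to the metal response element core, the *MT1X* window 4, the *SLC30A1* window 1 and the *MTF1* window 0. Of 35116 RefSeq promoters of the same length, 24.8% held at least 1 such match, 1.58% at least 3 and 0.12% at least 5. A single match, as upstream of *SLC30A1*, was therefore common, whereas the number upstream of *MT2A* and *MT1X* was rare among promoters. A TATA box (TATAAA) lay 29 bases before the *MT2A* start and 30 bases before the *MT1X* start, and none was found upstream of *SLC30A1* or *MTF1*, against 10.7% of all promoters with 1 or more. The core of the antioxidant response element (TGACNNNGC) occurred once each upstream of *MT2A*, *MT1X* and *SLC30A1* and in 10.9% of all promoters. These matches describe the letters of the windows and do not show that a factor bound there.

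**Figure D1:**
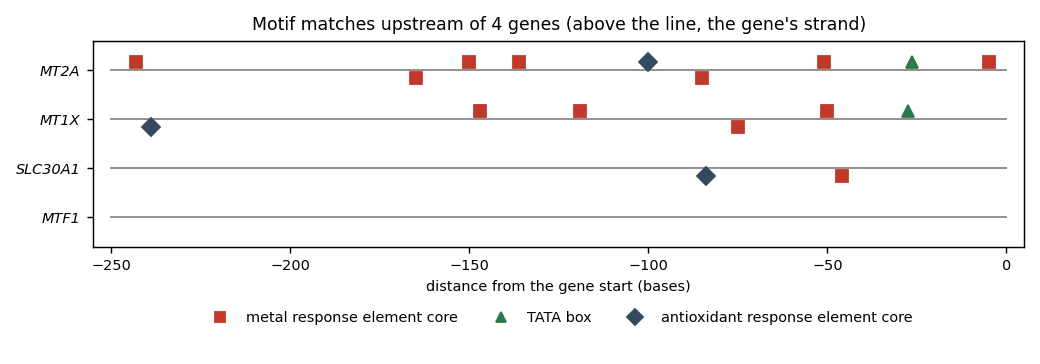
Motif matches in the 250 bases upstream of 4 genes, plotted by distance from the gene start in bases, with matches on the strand of the gene above each line and those on the opposite strand below it. *MT2A* has 7 metal response element cores spread over the window, *MT1X* has 4, *SLC30A1* has 1 and *MTF1* has none.

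The 6 metallothionein genes lie together on chromosome 16 (GRCh37, GENCODE annotation), from *MT2A* at chr16:56642496-56643409 to *MT1X* at chr16:56716382-56718108. *MT1G* (chr16:56700642-56701977) is read from the minus strand and the other metallothioneins here from the plus strand. *SLC30A1* lies at chr1:211744910-211752503 and *MTF1* at chr1:38275246-38325264, both on the minus strand. The exons of the metallothioneins are rich in GC, with 53.7% (*MT1X*) to 58.7% (*MT1E*), compared with 46.6% in *MTF1* and 40.7% in *SLC30A1*.

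The metallothioneins are near copies of each other and of pseudogenes, which limits what short reads can tell. Of all windows of 50 bases (the read length) along the principal transcript of *MT1X*, 53.2% had an exact copy elsewhere in the genome or in a transcript of another annotated gene. The share was 21.3% for *MT1G*, 20.1% for *MT1E*, 18.6% for *MT1M*, 11.1% for *MT2A* and 6.1% for *MT1F*. Only 1.4% of the windows of *MTF1* and 0.0% of those of *SLC30A1* had such a copy. Reads with multiple alignments were removed before counting, so counts of metallothioneins come from the unique stretches of each gene, which can understate their level. For *MT1X*, 18.6% of the exon length overlaps another annotated gene on the same strand, whose transcripts were also searched. The share of 53.2% can therefore include windows matched at the *MT1X* locus itself, and it is an upper limit for copies elsewhere in the genome.

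**Figure D2:**
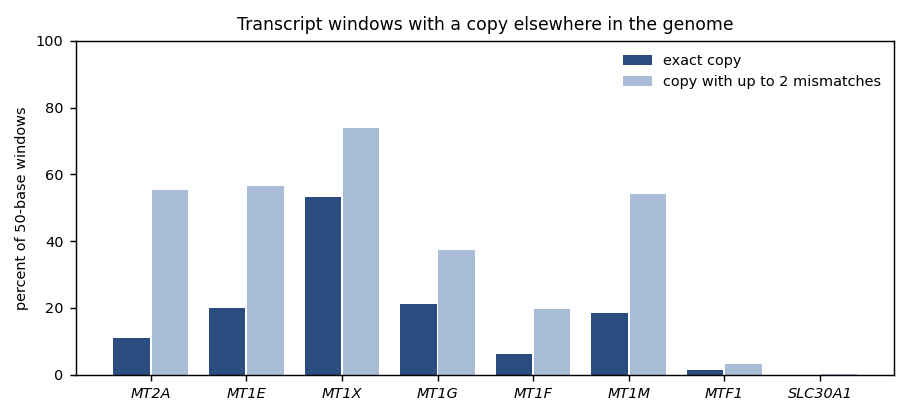
Share of 50-base windows along the principal transcript of each gene that have an exact copy (dark bars) or a copy with up to 2 mismatches (light bars). Copies were searched elsewhere in GRCh37 and in transcripts of other annotated genes. *MT1X* stands highest with 53.2% and 73.8%, which can include matches to a gene that overlaps it, and *SLC30A1* lowest with 0.0% and 0.2%.

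The libraries held 12943482 to 31991860 reads counted on genes. The epithelial keratins *KRT8*, *KRT18* and *KRT19* and the mesenchymal marker *VIM* were expressed in every library of both lines, with FPKM (reads scaled to transcript length and library size) of at least 56.5. The leukocyte, endothelial and acinar markers *PTPRC*, *PECAM1*, *PRSS1* and *CPA1* had 0 counts in every MiaPaCa2 library and at most 1 count in PANC1. Libraries differed in how strongly counts depended on the GC content of genes. The slope ran from -0.22 log2 units per 10 points of GC (MiaPaCa2 control replicate 1) to 0.29 (PANC1 control replicate 1), and the replicates of PANC1 control (0.29 and -0.07) and of PANC1 co-treatment (-0.16 and 0.23) stood far apart. These slopes bear on the genes described, since metallothioneins are GC-rich and *SLC30A1* is not, and each call of the 8 genes that was lost or gained after removal of the GC trend is named below.

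In untreated MiaPaCa2 cells, *MT2A* and *MT1E* were by far the most abundant of the 8 transcripts per length, and in PANC1 *MT2A* was alone at the top. The FPKM of *MT2A* was 1879 and 2340 in the MiaPaCa2 controls, and that of *MT1E* was 1830 and 1922, so these neighbours in the order overlapped. Below them came *MT1X* with a mean of 333 ± 19 FPKM (SD, n = 2), *MT1G* with 102.9 ± 5.6, *SLC30A1* with 11.1 ± 0.0064 and *MTF1* with 11.04 ± 1.5, and the last pair overlapped. *MT1F* (4.56 ± 0.92 FPKM) and *MT1M* (2.05 ± 0.68 FPKM) were the lowest and did not overlap. In PANC1 controls, *MT2A* stood at 1327 ± 270 FPKM and *MT1E* at 373 ± 38, without overlap, followed by *MT1X* (61.6 ± 6.5), *MT1G* (16.3 ± 6.5), *MTF1* (8.53 ± 0.80), *MT1F* (7.96 ± 0.17), *SLC30A1* (5.25 ± 2.0) and *MT1M* (3.10 ± 0.24), of which only *MTF1* and *MT1F* overlapped as neighbours. The FPKM of *MT1G* in PANC1 is hard to read, since it came with only 0 to 17 counts per library, whereas FPKM of 98.9 to 168 in MiaPaCa2 came with 135 to 335 counts. The same gap was seen in metallothionein pseudogenes, which were chosen after their values were seen. *MT1P3* had 3199 to 6558 FPKM in MiaPaCa2 with only 117 to 235 counts. The changes below therefore rest on counts.

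Before any treatment, PANC1 cells contained less *MT1E*, *MT1G*, *MT1X*, *MT2A* and *SLC30A1* mRNA than MiaPaCa2 cells and more *MT1M* mRNA. A gene was called changed when the adjusted p of limma-voom was at most 0.05, the log2 fold change at least 0.4 in either direction, and the treated group averaged over 1 FPKM (for the lines, at least one of them). By this rule 6 of the 8 genes differed between untreated lines, 5 of them lower in PANC1, against 52.3% of all 17863 genes tested (24.3% lower in PANC1). In CPM (read counts scaled to the TMM-normalized library size), *MT1E* measured 314 and 331 in the MiaPaCa2 controls and 72.2 and 56.4 in the PANC1 controls, and *MT1X* measured 81.5 and 88.4 against 13.9 and 12.5. For both genes every PANC1 library lay far below every MiaPaCa2 library. The log2 fold change was -2.35 (SE 0.12, adjusted p = 2.74e-09) for *MT1E* and -2.69 (SE 0.13, adjusted p = 1.58e-09) for *MT1X*.

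*MT1G* was nearly absent from the PANC1 counts, with 17 and 2 reads in the controls against 147 and 135 in the MiaPaCa2 controls, and its log2 fold change of -5.42 (SE 0.69, adjusted p = 1.32e-05) ranged from -6.97 to -3.43 when single libraries were left out. *MT2A* differed less, with 532 and 683 CPM in MiaPaCa2 and 438 and 305 CPM in PANC1 (log2 fold change -0.73, SE 0.19, adjusted p = 0.00401). The ranges of *MT2A* did not overlap, but the call was lost without MiaPaCa2 control replicate 2 or PANC1 control replicate 2, with log2 fold changes between -1.01 and -0.43 over all such fits. The exporter *SLC30A1* measured 76.4 and 76.5 CPM in MiaPaCa2 and 27.0 and 42.8 CPM in PANC1, a log2 fold change of -1.14 (SE 0.19, adjusted p = 0.000123). A lower level in bulk RNA does not tell fewer expressing cells from less RNA per cell.

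*MT1M* was higher in PANC1. It measured 1.16 and 1.07 CPM in MiaPaCa2 (19 and 14 counts) and 2.41 and 2.44 CPM in PANC1 (48 and 78 counts), a log2 fold change of 1.09 (SE 0.24, adjusted p = 0.00123), which on the FPKM scale was 0.44 and not called (adjusted p = 0.0816). *MT1F*, with 0.84 (SE 0.35, adjusted p = 0.0521), and the regulator *MTF1*, with -0.14 (SE 0.10, adjusted p = 0.252), did not pass. *MT1F* missed narrowly and was called in some fits that left out 1 library, with log2 fold changes from 0.51 to 1.09 over all such fits. For *MTF1* the 95% interval of the difference, -0.36 to 0.08, left out a change as large as the fold criterion. MTF1 mRNA was thus at 56.2 and 56.7 CPM in MiaPaCa2 and 50.4 and 51.9 CPM in PANC1, while *MT1E*, *MT1X* and *MT1G* differed severalfold.

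The summed counts of the 6 metallothioneins took up 0.0916% and 0.1084% of all counts in the MiaPaCa2 controls and 0.0483% and 0.0378% in the PANC1 controls. Their composition also differed between the lines. *MT2A* supplied 55.9% to 65.7% of the sum over the MiaPaCa2 libraries and 75.6% to 82.7% over the PANC1 libraries, whereas *MT1E* supplied 25.6% to 33.5% and 13.5% to 18.1%. The ranges of the lines did not overlap for either gene. By group means the sum was highest with genistein in MiaPaCa2, at 0.173% and 0.1448%, a range that overlapped co-treatment (0.1267% and 0.1459%).

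**Figure D3:**
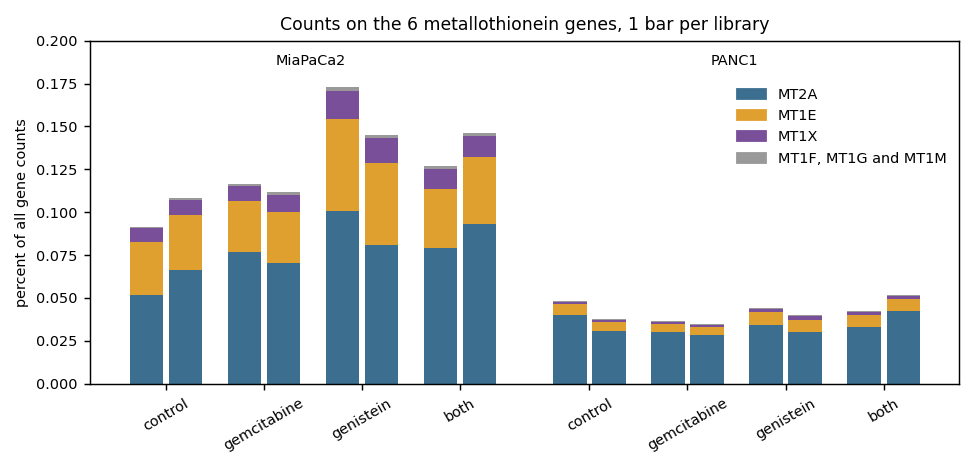
Percent of all gene counts that fell on the 6 metallothionein genes, with 1 bar per library and the parts of *MT2A*, *MT1E*, *MT1X* and the other 3 genes stacked. The MiaPaCa2 bars lie between 0.0916% and 0.173% and the PANC1 bars between 0.0345% and 0.0519%.

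Genistein raised the abundant metallothioneins in MiaPaCa2. Compared with control, 4 of the 8 genes were called higher and none lower, against 8.31% of all 16064 genes tested called (4.18% higher), and the median log2 fold change of the 8 genes was 0.54 compared with -0.0039 over all genes. The 8 genes were chosen with earlier results of these data known, so this contrast is a description alone. *MT1X* rose from 81.5 and 88.4 CPM in control to 180 and 153 CPM with genistein, which is 1.92-fold (log2 fold change 0.94, SE 0.10, adjusted p = 0.000572). *MT1E* rose from 314 and 331 CPM to 581 and 499 CPM, which is 1.65-fold (log2 fold change 0.72, SE 0.09, adjusted p = 0.00100). In both genes the treated libraries lay well above the controls, and neither call was lost when any single library was left out.

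*MT1G*, which is on the opposite strand from its neighbours, measured 8.94 and 10.3 CPM in control and 19.2 and 15.8 CPM with genistein (log2 fold change 0.83, SE 0.15, adjusted p = 0.00614). *MT2A* measured 532 and 683 CPM in control and 1081 and 851 CPM with genistein (log2 fold change 0.65, SE 0.13, adjusted p = 0.00953). The groups did not overlap for these genes either, but their calls were less firm. Without MiaPaCa2 control replicate 1, the adjusted p of *MT1G* was 0.106 and that of *MT2A* was above 0.05, which left 2 genes called. The call of *MT2A* was also lost without genistein replicate 1, and both were lost with all 16 libraries in one model (adjusted p = 0.154 and 0.0609). On the FPKM scale *MT2A* was not called either (0.63, adjusted p = 0.0826).

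The exporter *SLC30A1* measured 97.8 and 108.2 CPM with genistein and 76.4 and 76.5 CPM in control, so the groups did not overlap, but it narrowly missed the threshold (log2 fold change 0.42, SE 0.13, adjusted p = 0.0528). It passed with the DESeq2 Wald test (adjusted p = 0.0381) and after removal of the GC trend (log2 fold change 0.53, adjusted p = 0.00152). The weakly expressed *MT1F* (-0.06, SE 0.44) and *MT1M* (-0.29, SE 0.35) had 11 to 36 and 10 to 21 counts in the 4 libraries. The interval of the difference was -1.03 to 0.90 for *MT1F* and -1.05 to 0.48 for *MT1M*. Both intervals left out a rise as large as the 0.94 of *MT1X*, that of *MT1F* only narrowly, but held a fall of that size. *MTF1* measured 56.2 and 56.7 CPM in control and 45.8 and 56.6 CPM with genistein (log2 fold change -0.15, SE 0.12, adjusted p = 0.461).

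**Figure D4:**
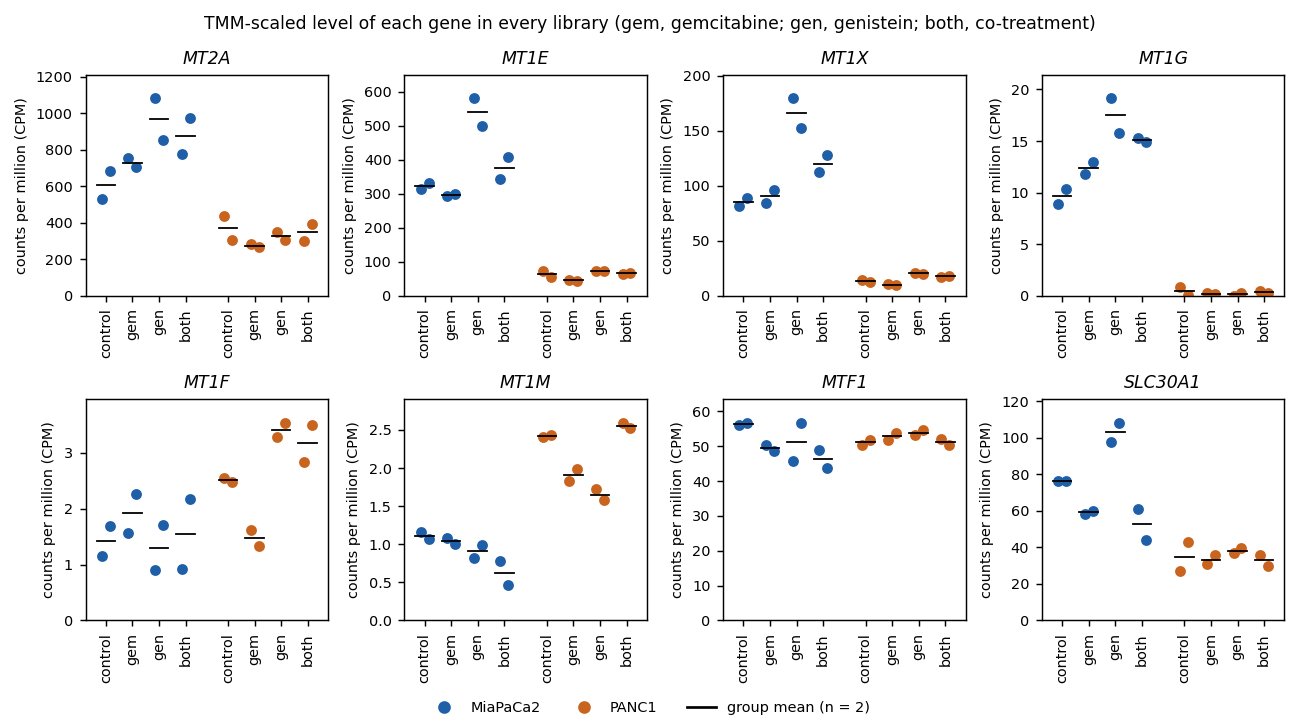
TMM-scaled CPM of each of the 8 genes in every library, by cell line and treatment, with a point for each library and a line at the mean of the 2 replicates. All axes are linear and start at 0. In MiaPaCa2 the genistein libraries are the highest for *MT1E*, *MT1X*, *MT1G* and *SLC30A1*, and *SLC30A1* is lower with gemcitabine and with both drugs than in control.

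With gemcitabine alone in MiaPaCa2, *SLC30A1* was called lower and none of the 6 metallothioneins was called. This is 1 of the 8 genes, against 29.6% of all 16064 genes (14.6% lower). *SLC30A1* measured 58.5 and 59.9 CPM with gemcitabine and 76.4 and 76.5 CPM in control, which is 0.747 times the control level (log2 fold change -0.42, SE 0.13, adjusted p = 0.0257). The replicates were tight in both groups, yet this call was fragile. It was lost without either replicate of the 2 groups, with library size alone in place of TMM (adjusted p = 0.0992), with all 16 libraries in one model (0.163) and after removal of the GC trend, where the log2 fold change was -0.14 (adjusted p = 0.248). After that removal *MT1E* was called lower instead (-0.41, adjusted p = 0.000120, against -0.17 and 0.158 before). The other metallothioneins had log2 fold changes from -0.15 (*MT1M*) to 0.39 (*MT1F*), and *MTF1* had -0.24 (SE 0.12, adjusted p = 0.127). For *MT1X* the interval of -0.20 to 0.27 left out a change as large as that with genistein.

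With co-treatment of MiaPaCa2, *MT1G*, *MT1X* and *MT2A* were called higher than in control and *SLC30A1* lower. None of these calls held after removal of the GC trend. They are 4 of the 8 genes, a share near the 40.5% of all genes tested that were called (20.3% higher and 20.2% lower). *MT1X* measured 112.6 and 127.6 CPM (log2 fold change 0.44, SE 0.11, adjusted p = 0.00418), *MT2A* 778 and 974 CPM (0.48, SE 0.13, adjusted p = 0.00861) and *MT1G* 15.3 and 14.9 CPM (0.60, SE 0.16, adjusted p = 0.00607). Each treated library lay above both controls. *MT1E* measured 342 and 407 CPM and was not called (0.15, SE 0.09, adjusted p = 0.186).

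*SLC30A1* fell to 61.2 and 44.1 CPM with both drugs, which is 0.650 times the control level (log2 fold change -0.62, SE 0.14, adjusted p = 0.00227). *MTF1*, at 48.8 and 43.9 CPM, passed the adjusted p but not the fold criterion (log2 fold change -0.35, SE 0.12, adjusted p = 0.0296). *MT1M* measured 0.781 and 0.461 CPM, from 11 and 7 counts (log2 fold change -0.93, SE 0.39, adjusted p = 0.0630). The co-treated replicates differed in GC slope (0.04 and 0.28, against -0.22 and -0.13 in control), and after removal of the GC trend none of the 4 calls held, the log2 fold changes being 0.36 for *MT1G*, 0.21 for *MT1X*, 0.24 for *MT2A* and -0.26 for *SLC30A1*, while *MT1M* was called lower (-1.17, adjusted p = 0.00969). With all 16 libraries in one model the call of *MT1G* was lost (0.66, adjusted p = 0.127) and *MT1M* was called lower (-0.86, adjusted p = 0.0412), and on the FPKM scale the call of *SLC30A1* was lost (-0.47, adjusted p = 0.0663). Without MiaPaCa2 co-treatment replicate 2, or without control replicate 1, 1 of the 8 genes was called.

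**Figure D5:**
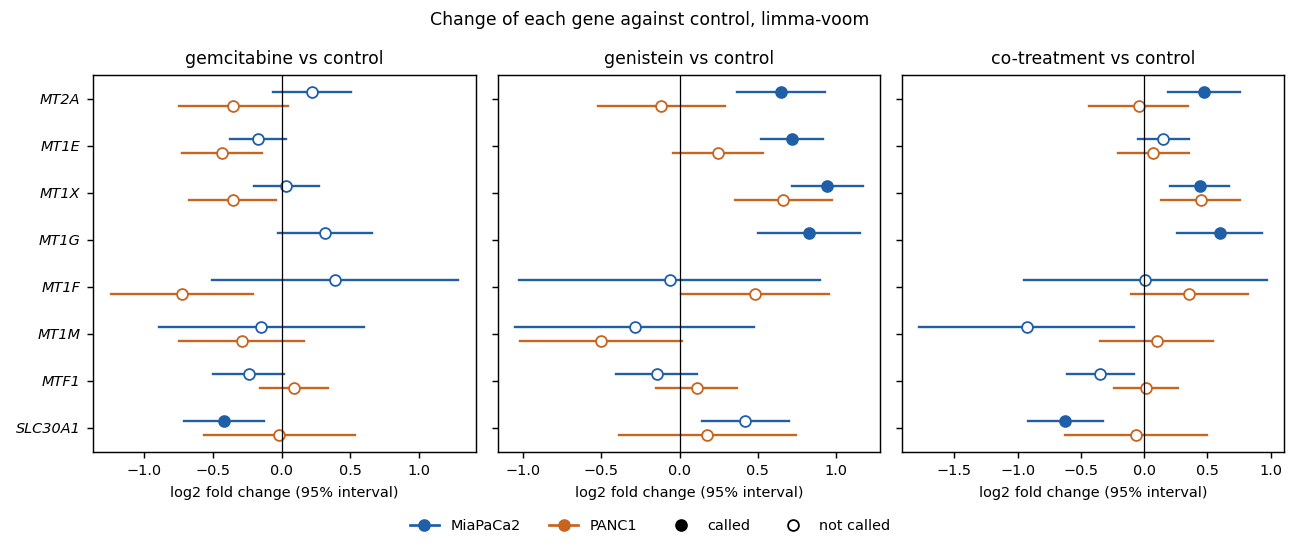
Log2 fold change of each gene against control with its 95% interval, by treatment and cell line, with filled points for genes called and open points for the rest. With genistein, *MT2A*, *MT1E*, *MT1X* and *MT1G* are called higher in MiaPaCa2, and no gene is called in PANC1, where *MT1G* was not tested.

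With gemcitabine added to genistein, some of these genes were lower than with genistein alone. Between co-treatment and genistein alone in MiaPaCa2, *MT1E*, *MT1X* and *SLC30A1* were called lower, 3 of the 8 genes, and none higher, against 31.5% of all genes (14.9% lower). *SLC30A1* differed most, at 0.486 times its genistein level (log2 fold change -1.04, SE 0.13, adjusted p = 8.11e-05). *MT1E* was at 0.675 times (log2 fold change -0.57, SE 0.09, adjusted p = 0.000362) and *MT1X* at 0.706 times its genistein level (-0.50, SE 0.10, adjusted p = 0.00183). These 3 calls held when any single library was left out, but that of *MT1X* was lost with library size alone (-0.39) and on the FPKM scale (-0.37), where it missed the fold criterion. *MT2A* (-0.18, SE 0.13, adjusted p = 0.293) and *MT1G* (-0.23, SE 0.14, adjusted p = 0.206) were not called.

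Adding genistein to gemcitabine gave 1 call among the 8 genes, against 5.88% of all genes (4.05% higher). *MT1X* was 1.33-fold higher with both drugs than with gemcitabine (log2 fold change 0.41, SE 0.11, adjusted p = 0.0379), a value just above the fold criterion that missed it after removal of the GC trend (0.32, adjusted p = 0.0144) and under library size alone (0.38, adjusted p = 0.0449), and that missed the adjusted p with the replicate block (0.41, adjusted p = 0.0714). The call was also lost without co-treatment replicate 2, either gemcitabine replicate or either control replicate, and without co-treatment replicate 1 there were 3 calls (*MT1E*, *MT1X* and, lower, *SLC30A1*). *MT1E* had 0.33 (SE 0.09, adjusted p = 0.0511) in the same direction.

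The gemcitabine by genistein interaction, which asks whether the co-treated level departs from the sum of the single-drug changes on the log2 scale, passed for none of the 8 genes in MiaPaCa2 by limma-voom, edgeR or DESeq2, and by limma-voom for 0.0249% of all genes. Its estimates were negative for all but *MTF1*, with -0.62 (SE 0.19, adjusted p = 0.420) for *SLC30A1*, -0.54 (SE 0.15, adjusted p = 0.374) for *MT1X* and -0.39 (SE 0.13, adjusted p = 0.443) for *MT1E*. At an unadjusted p under 0.05, *MT1E*, *MT1G*, *MT1X* and *SLC30A1* passed, against 8.38% of all genes. *SLC30A1* passed the adjusted threshold after removal of the GC trend (-0.65, adjusted p = 0.0486) and without co-treatment replicate 1.

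In PANC1, none of the 7 genes tested was called in any of the 5 comparisons, and *MT1G* was removed by the filter on low counts. The background was 7.52% of 16909 genes called with gemcitabine, 0.0591% with genistein, 17.1% with co-treatment, 0.0177% between co-treatment and gemcitabine and 8.18% between co-treatment and genistein. At an unadjusted p under 0.05, genistein against control gave *MT1X* and *MT1F* (19.2% of all genes), gemcitabine against control *MT1E*, *MT1F* and *MT1X* (25.6%), and co-treatment against control *MT1X* (34.1%). Co-treatment against gemcitabine gave *MT1E*, *MT1F* and *MT1X* (13.4%), and co-treatment against genistein *MT1M* (27.4%). The share of genes called depended on the procedure. With genistein it was 4.46% with the DESeq2 Wald test, 4% with all 16 libraries in one model and 7.3% after removal of the GC trend, and between co-treatment and gemcitabine it was 1.22%, 2.72% and 7.19%.

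*MT1X* separated all 4 PANC1 groups. It measured 13.9 and 12.5 CPM in control, 10.5 and 9.51 CPM with gemcitabine, 20.9 and 19.8 CPM with genistein and 17.3 and 18.1 CPM with both drugs, and no group overlapped another. With 2 libraries per group, groups can also separate without a treatment effect. The share of all genes that separate was not counted, here or for the other groups said not to overlap. The genistein difference of 0.66 (SE 0.13, adjusted p = 0.112) was not called, but was called with the DESeq2 Wald test (0.63, adjusted p = 0.0229), after removal of the GC trend (0.61, adjusted p = 0.0119) and with all 16 libraries in one model (0.63, adjusted p = 0.0369). Its difference between co-treatment and gemcitabine, 0.80 (SE 0.14, adjusted p = 0.117), was called under the same 3 alternatives, with adjusted p of 0.00521, 0.00975 and 0.0159. Its co-treatment change against control, 0.45 (adjusted p = 0.0516), was called after removal of the GC trend (0.42, adjusted p = 0.0105), where 29.2% of all genes were called, and with all 16 libraries in one model, library size alone and the FPKM scale. The edgeR quasi-likelihood test called none of the 7 genes in the PANC1 comparisons.

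*MT1F* was lowest with gemcitabine (1.62 and 1.32 CPM, from 30 and 28 counts), compared with 2.56 and 2.47 CPM in control and 2.84 and 3.49 CPM with both drugs. The gemcitabine change was -0.73 (SE 0.22, adjusted p = 0.0868) and the difference between co-treatment and gemcitabine 1.08 (SE 0.23, adjusted p = 0.131), and both were called after removal of the GC trend (adjusted p = 0.0322 and 0.0149). *MT1E* measured 46.6 and 44.1 CPM with gemcitabine against 72.2 and 56.4 CPM in control (-0.43, SE 0.13, adjusted p = 0.0728), and was called lower with the DESeq2 Wald test (adjusted p = 0.0302), with all 16 libraries in one model (adjusted p = 0.0316) and without PANC1 control replicate 2. After removal of the GC trend *MT1E* was called higher with genistein (0.43, adjusted p = 0.0295) and between co-treatment and gemcitabine (0.44, adjusted p = 0.0340), and *MT1M* higher between co-treatment and genistein (0.62, adjusted p = 0.0480). For *MT1F* and *MT1E* the gemcitabine and control groups did not overlap.

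*MT2A* measured 438 and 305 CPM in control, 284 and 265 CPM with gemcitabine, 348 and 303 CPM with genistein and 299 and 395 CPM with both drugs, and the genistein and co-treated groups overlapped control. Its genistein change in PANC1 was -0.12 (95% interval -0.52 to 0.29, adjusted p = 0.765). *SLC30A1* measured 27.0 and 42.8 CPM in control, and every treated library (30.1 to 39.9 CPM) fell between these values. The wide spread of the PANC1 controls, whose GC slopes also stood apart, left the *SLC30A1* intervals broad (-0.57 to 0.53 with gemcitabine and -0.63 to 0.50 with co-treatment), so the co-treatment change measured in MiaPaCa2 (-0.62) was within the latter. *MTF1* stayed between 50.3 and 54.5 CPM in all 8 libraries. By limma-voom the interaction passed for 0% of 16909 genes in PANC1, and the DESeq2 Wald test called 4 genes, none of them among the 7. At an unadjusted limma-voom p under 0.05, *MT1M* alone of the 7 genes passed (0.89, SE 0.31, adjusted p = 0.734), against 4.92% of all genes.

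Whether the responses differed between the lines was tested directly, and none of the 8 genes passed for any treatment by limma-voom, the edgeR quasi-likelihood test or the DESeq2 Wald test. At an unadjusted limma-voom p under 0.05, *MT1F*, *MT1X* and *MT2A* passed for gemcitabine (32% of all genes), *MT1E* and *MT2A* for genistein (11.5%), and *MT1M* and *MT2A* for co-treatment (33.4%). By adjusted p the background was 15.3% of 17863 genes for gemcitabine, 0.0336% for genistein and 18.1% for co-treatment. The genistein response of *MT2A* was lower in PANC1 by 0.82 on the log2 scale (difference -0.82, SE 0.27, 95% interval -1.40 to -0.24, adjusted p = 0.302), that of *MT1E* differed by -0.53 (SE 0.18, adjusted p = 0.306) and that of *MT1X* by -0.33 (SE 0.19, adjusted p = 0.501). Hence the calls in MiaPaCa2 and their lack in PANC1 do not by themselves show a different response. For gemcitabine, *MT2A* (-0.67, SE 0.27, adjusted p = 0.107), *MT1X* (-0.49, SE 0.19, adjusted p = 0.104) and *MT1F* (-1.21, SE 0.51, adjusted p = 0.122) had the lowest values relative to MiaPaCa2. Without PANC1 control replicate 2, 4 genes passed for gemcitabine and 3 for co-treatment, *MT1G*, *MT2A* and *SLC30A1* for both and *MT1E* for gemcitabine, and without PANC1 co-treatment replicate 2, *MT2A* passed for co-treatment. After removal of the GC trend *MT1M* passed for co-treatment (1.17, adjusted p = 0.0187), as did 30.2% of all genes.

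Most other metallothionein genes had too few counts to test. Of 10 further metallothionein genes, 9 had a row in the counts and only *MT1A* and *MT1L* passed the low-count filter in MiaPaCa2. *MT1A*, at 8.51 and 10.4 CPM in the MiaPaCa2 controls, was called higher with gemcitabine (log2 fold change 1.28, adjusted p = 4.38e-05), genistein (1.09, adjusted p = 0.00136) and co-treatment (1.71, adjusted p = 1.43e-06). It measured 23.5 and 23.7 CPM with gemcitabine, 21.6 and 19.0 with genistein and 32.9 and 31.2 with both drugs, and was thus highest with both. In PANC1 it was called higher with co-treatment (0.67, adjusted p = 0.0179), a call lost with only the 4 libraries compared and without co-treatment replicate 1 or control replicate 2. Both *MT1A* (0.68, adjusted p = 0.00120) and *MT1L* (1.81, adjusted p = 4.46e-07) were called higher in untreated PANC1 than in untreated MiaPaCa2, with *MT1A* at 15.8 and 14.4 CPM in the PANC1 controls and *MT1L* at a mean of 98.9 CPM in PANC1 and 27.7 CPM in MiaPaCa2. *MT1L* is known as a pseudogene, and each of the 137 windows of 50 bases along its transcript had an exact copy in the search. However, all of its exon length overlaps another annotated gene on the same strand, whose transcripts were also searched. The matches can therefore lie at the *MT1L* locus itself, and the search does not separate them from copies elsewhere in the genome. Given this overlap, the counts of *MT1L* (371 to 2699 per library) cannot be assigned to it with certainty. Its MiaPaCa2 calls (0.49 with gemcitabine and 0.53 with co-treatment) were lost after removal of the GC trend.

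Among the other zinc exporters of the SLC30 family, 6 of 9 were tested in MiaPaCa2. *SLC30A3*, a transporter known for loading zinc into synaptic vesicles, was called higher with gemcitabine (1.84, SE 0.25, adjusted p = 0.000157) and with co-treatment (2.95, SE 0.24, adjusted p = 1.21e-06), the opposite direction to *SLC30A1*. *SLC30A4* was also called higher with both (0.62 and 1.08, the former lost on the FPKM scale), and no SLC30 list gene was called with genistein. *SLC30A9* was called lower with co-treatment, a call lost after removal of the GC trend. Of the 6 exporters, 2 were thus called higher with gemcitabine, against 29.6% of all genes called. With co-treatment 2 were called higher and 1 lower, against 40.5% of all genes called. In PANC1, *SLC30A3* (2.103, adjusted p = 0.00356) and *SLC30A4* (0.83, adjusted p = 0.0323) were called higher with co-treatment, 2 of 7 exporters tested, against 17.1% of all genes called. The PANC1 call of *SLC30A4* was lost with the replicate block (adjusted p = 0.0674), with only the 4 libraries compared (0.140), and without co-treatment replicate 1, control replicate 1 or either replicate of gemcitabine or genistein. The list median in MiaPaCa2 co-treatment was -0.05, close to the -0.01 of all genes. Between untreated lines 3 of 7 exporters were called, all lower in PANC1, against 52.3% of all genes called.

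Zinc importers of the SLC39 family were called in both directions. Of 11 tested in MiaPaCa2, 2 were called higher and 1 lower with gemcitabine, none with genistein, and 2 higher and 2 lower with co-treatment. These shares lie below those over all genes (29.6% with gemcitabine and 40.5% with co-treatment), and both genes called higher with gemcitabine, *SLC39A4* and *SLC39A13*, were lost after removal of the GC trend (0.29 and 0.06). *SLC39A10*, a plasma membrane importer, fell by 0.68 with gemcitabine and by 1.14 with co-treatment on the log2 scale (adjusted p = 0.000907 and 1.19e-05), the former lost after removal of the GC trend. In PANC1, *SLC39A11* was called lower with gemcitabine (-0.56, adjusted p = 0.0273) and *SLC39A8* higher with co-treatment (1.20, adjusted p = 0.0207). The call of *SLC39A11* was lost with the replicate block (adjusted p = 0.0684), with only the 4 libraries compared (0.101), on the FPKM scale (-0.25, adjusted p = 0.554), and without control replicate 1 or either replicate of gemcitabine or genistein. That of *SLC39A8* was lost with only the 4 libraries compared, on the FPKM scale and without co-treatment replicate 1 or either control replicate. Between untreated lines 8 of 11 importers were called (52.3% of all genes), 5 higher and 3 lower in PANC1, led by *SLC39A8* (-4.60, adjusted p = 8.00e-10). Of 9 copper-handling genes tested in MiaPaCa2, 3 were called higher with gemcitabine, none with genistein, and 5 higher and 1 lower with co-treatment, against 29.6% and 40.5% of all genes called with gemcitabine and co-treatment. With co-treatment *SLC31A2* (1.32, adjusted p = 1.80e-05), *CCS*, the copper chaperone for superoxide dismutase (0.74, adjusted p = 0.000531), and *ATOX1*, a copper chaperone (0.62, adjusted p = 0.000179), changed most. With genistein alone in MiaPaCa2, *MT1A* was the one call among these 4 lists.

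Across the 16 libraries, with the mean of each line removed, *MT1E* and *MT1X* ran most closely together among the members (Pearson r = 0.93 of log2 CPM), followed by *MT1E* with *MT2A* (0.76) and *MT1X* with *MT2A* (0.67). *SLC30A1* was less like them, with 0.37 for *MT1E* and -0.14 for *MT2A*, and *MTF1* had -0.63 with *MT2A*. Among the 17855 other genes tested, those most like *MT2A* were *ARAF* (0.95), *TUBB4B* (0.94), *CNNM3* (0.94), *SLC16A5* (0.94) and *C11orf24* (0.93), and those most like *SLC30A1* were *DENND6A* (0.96), *SMAD4* (0.94), *VPS26A* (0.92), *TJP1* (0.92) and *AZIN1* (0.92). These values describe libraries that share treatments and GC slopes, and points that share them are not independent.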

How the data were processed

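The authors prepared poly-A libraries with a stranded kit, sequenced single reads of 50 bases, mapped them to GRCh37 with TopHat2 2.0.4, removed multiply aligned reads with Picard 1.29 and counted reads per gene with HTSeq 0.6.1. The deposited counts are raw whole numbers. The FPKM values deposited by the authors come from Cufflinks 2.1.1 and are scaled to length and depth. The counting strand setting and annotation release are not given in the sources used here. Isoform FPKM were not used.

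Columns were assigned to samples by their labels. Counts (12943482 to 31991860 per library) were normalized by TMM (edgeR 4.0.16), filtered with filterByExpr and compared by limma-voom (version 3.58.1 of limma in R 4.3.3), with 8 libraries per model within a line and 16 across lines, and Benjamini-Hochberg adjustment over all genes tested. Interactions and response differences between lines were judged by adjusted p alone. Replicates of each group differed by more than sampling noise (chi-square per degree of freedom 2.70 to 32.0), which does not by itself show that they are independent. All 16 libraries were used. The procedure was also run on simulated data, but the outcome is not given here and lends no support to the calls.

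All 8 members are named in every comparison. From each list of other genes, at most the 3 with the largest absolute log2 fold change among those called in a comparison were named, and for likeness the 5 highest correlations. The members and lists were chosen with earlier results of these data known. Gene positions, exon GC content and transcripts came from GENCODE v44 in its GRCh37 version, which may differ from the annotation the authors counted on. Copies of 50-base windows were searched on both strands of GRCh37 outside the gene and in the transcripts of all other annotated genes. Genes that overlap the searched gene were not left out. Alternatives were edgeR's quasi-likelihood test, DESeq2 1.42.0, its size factors, library size alone, no low-count filter, limma-trend on log2(FPKM + 1), removal of a loess trend with GC content (span 0.3, degree 1), the replicate block, both of these together, other libraries in the model, other call rules and each library left out in turn.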

Additional observations from a re-analysis of the deposited data

Results flagged for a closer look

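For none of the 8 genes did the test of a different response between the lines pass, which does not show that the responses were alike. Genes of the neighbouring lists passed the limma-voom test of the difference itself, PANC1 minus MiaPaCa2. Such passes were common, with 15.3% of all 17863 genes for gemcitabine and 18.1% for co-treatment. Of 9 copper-handling genes tested, 1 passed with a higher value in PANC1 for co-treatment and is not named here, and 3 passed with a lower value. For gemcitabine against control the differences in log2 fold change were -1.15 for *MT1A* (1.28 in MiaPaCa2 and 0.22 in PANC1, adjusted p = 0.00300), -0.92 for *MT1L* (0.49 and -0.33, adjusted p = 0.0183), -1.60 for *SLC30A3* (1.84 and 0.33, adjusted p = 0.0488), 1.10 for *SLC39A8* (-0.23 and 0.96, adjusted p = 0.0221), -0.73 for *SLC31A2* (0.60 and -0.03, adjusted p = 0.0300) and -1.38 for *ATP7B* (0.48 and -0.81, adjusted p = 0.000519). For co-treatment against control they were -1.12 for *MT1A* (1.71 and 0.67, adjusted p = 0.00186), -0.77 for *MT1L* (0.53 and -0.16, adjusted p = 0.0337), 1.58 for *SLC39A8* (-0.47 and 1.20, adjusted p = 0.00237), -1.07 for *SLC31A2* (1.32 and 0.34, adjusted p = 0.00288), -1.41 for *ATP7B* (0.48 and -0.85, adjusted p = 0.000239) and -0.63 for *ATOX1* (0.62 and 0.08, adjusted p = 0.0196). Both differences of *MT1L* were lost after removal of the GC trend, and the gemcitabine differences of *SLC30A3* and *SLC31A2* were lost with library size alone in place of TMM. On the FPKM scale the gemcitabine differences of *SLC30A3*, *SLC39A8* and *SLC31A2* and the co-treatment difference of *SLC39A8* were lost, and the differences of *MT1L*, the gemcitabine differences of *SLC30A3*, *SLC31A2* and *SLC39A8* and that of *ATOX1* were lost in some of the fits that left out 1 library. With 2 libraries per group, no single library could be tested as an outlier.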

How the results depend on the processing

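Counts of the 8 genes called changed as follows. Requiring an absolute log2 fold change of 1 left 0 calls in MiaPaCa2 for gemcitabine, genistein, co-treatment and co-treatment against gemcitabine (from 1, 4, 4 and 1), and 1 of 3 for co-treatment against genistein. Library size alone, limma-trend on log2(FPKM + 1) and all 16 libraries in one model each left 0 calls in MiaPaCa2 for gemcitabine and for co-treatment against gemcitabine. All 16 libraries in one model left 2 of 4 for genistein, and no low-count filter left 0 for co-treatment against gemcitabine. The GC correction left 0 of the 4 calls of MiaPaCa2 co-treatment and added 1 (*MT1M*), for a count of 1, left 0 of 1 for co-treatment against gemcitabine, and gave 1 for the MiaPaCa2 interaction. In PANC1, where 0 genes were called, it gave 1 for gemcitabine, 2 for genistein, 1 for co-treatment, 3 for co-treatment against gemcitabine and 1 for co-treatment against genistein, and it gave 1 for the co-treatment difference between lines. The share over all genes rose with it in PANC1, to 18% for gemcitabine, 7.3% for genistein, 29.2% for co-treatment, 7.19% for co-treatment against gemcitabine and 21% for co-treatment against genistein. The DESeq2 Wald test and all 16 libraries in one model gave 1 for PANC1 gemcitabine, genistein and co-treatment against gemcitabine, the latter also 1 for PANC1 co-treatment, as did library size alone and limma-trend, and limma-trend gave 1 for PANC1 co-treatment against genistein.

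Replicate labels did not pair the samples: differences between replicates 1 and 2 correlated between groups with r from -0.18 to 0.11 in MiaPaCa2 and from -0.46 to 0.24 in PANC1. The replicate block left 0 of 1 calls for MiaPaCa2 co-treatment against gemcitabine and changed no other call of the 8 genes. The replicate block with the GC correction likewise left 0 of the 4 calls of MiaPaCa2 co-treatment and added *MT1M* (a count of 1), left 0 of 1 for co-treatment against gemcitabine, and gave 1 for PANC1 gemcitabine, genistein and co-treatment, 2 for PANC1 co-treatment against gemcitabine and 1 for the co-treatment difference between lines.

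With each library left out in turn, the counts ran from 0 to 1 for MiaPaCa2 gemcitabine, 2 to 5 for genistein, 1 to 5 for co-treatment, 0 to 3 for co-treatment against gemcitabine and 0 to 1 for the interaction, from 0 to 2 for PANC1 gemcitabine, and from 0 to 4 and 0 to 3 for the differences between lines with gemcitabine and co-treatment. The other comparisons stayed within 1.5 times their count. Of 2503 values of single members under an alternative, 2398 kept their side of the call, 48 lost a call and 57 gained one. Calls of genes of the lists were less firm, with 224 of 1460 values losing the call. No called value of a member changed sign, and sign changes were found among uncalled values alone. Among genes of the lists, *SLC30A9* in MiaPaCa2 co-treatment, called at -0.45, was 0.14 with the GC correction, with and without the replicate block (0.1361 and 0.1372), and not called. Except for the criteria of the call itself, the cause of these changes was not tested.

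Library size alone shifted the median over all genes in PANC1 co-treatment from 0.01 to 0.17 (log2) and the share of calls that were higher from 59.7% to 79.9%. That share moved from 59.7% to 78.6% in PANC1 gemcitabine, from 47.4% to 78.3% in PANC1 co-treatment against genistein, from 50.6% to 66.5% in MiaPaCa2 gemcitabine and from 52.6% to 67.3% in MiaPaCa2 co-treatment against genistein. With 2 libraries per group, and 0 to 79 counts per library for *MT1F*, *MT1M* and PANC1 *MT1G*, a change of the size seen in *MT1X* could go uncalled in these genes.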
